A study of Bos taurus with 12 samples.

Results

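The genes described here encode 4 proteins that the uterine lining is known to secrete. They are SERPINA14, SPP1, RBP4 and CLU. The genes were taken by name, and no measured value entered the rule, although earlier results of these data were known when the set was drawn up. A probe was assigned to a gene by the accession or gene name given for it in the scanner files. Each gene had 1 probe, so 4 probes of 15208 non-control probes on the array and 4 genes of 5947 with a gene symbol are the subject of this account.

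Cows of the Japanese-Black breed gave biopsies of endometrium, the lining of the uterus, at day 15 of the cycle, and the total RNA of each biopsy was hybridised to its own 1-colour array. There were 4 groups of 3 arrays. They were the uterine horn next to the corpus luteum (CL side; this body of the ovary secretes progesterone) in summer, the same side in autumn, the opposite horn (non-CL side) in summer, and the opposite horn in autumn. Summer stood for early September and autumn for mid-November, sampled over consecutive years that the labels do not assign to single samples. The labels name no treatment or genotype. They do not say whether replicates of a group, or same-numbered horns of a season, came from separate cows or from 1 cow, so p-values here measure the spread between these samples, which may be partly technical.

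In ruminants the glands of the endometrium release a protein-rich fluid, often called uterine milk or histotroph, that feeds the early conceptus before it attaches. Secretion builds up under progesterone from the corpus luteum, and day 15 lies in the part of the cycle in which an elongating embryo would be present. SERPINA14 is the uterine serpin of ruminants, also called uterine milk protein, a product of the glands that belongs to the serpin family of serine protease inhibitors. SPP1 is osteopontin, an adhesive phosphoprotein that binds integrins and CD44 on cell surfaces. RBP4 is the plasma retinol-binding protein, which carries vitamin A, is made by the liver and also by the endometrium, and hands retinol to cells through the membrane receptor STRA6. CLU is clusterin, a secreted chaperone of misfolded proteins that also binds the terminal complement complex.

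The measurements of a gene rest on a single oligonucleotide probe, so the 4 probe sequences are shown. Each has 60 bases and is given 5′ to 3′ as deposited in the scanner files.
SERPINA14: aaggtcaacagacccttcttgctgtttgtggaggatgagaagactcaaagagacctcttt
SPP1: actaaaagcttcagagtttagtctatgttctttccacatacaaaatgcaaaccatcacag
RBP4: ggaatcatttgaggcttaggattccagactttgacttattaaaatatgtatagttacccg
CLU: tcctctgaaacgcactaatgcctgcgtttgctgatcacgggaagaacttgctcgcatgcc
The SERPINA14 probe is listed in the files under the locus name LOC286871 and the description of a uterine milk protein, and was linked to its present symbol by accession. GC content was 45.0% for the SERPINA14 probe, 35.0% for the SPP1 probe, 35.0% for the RBP4 probe and 53.3% for the CLU probe. For each of the 4, the number of other probes on the array that shared a run of 15 bases with it was 0. Because probes differ in how strongly they bind, the level of a probe is set below only against the same probe on other arrays.

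Signals are given as the processed spot intensity and as log2 of that intensity over the array's own 75th percentile, so a log2 value of 0 means a signal equal to that percentile. All 4 probes were well above background on 12 of 12 arrays and saturated on 0. One array stood apart, CL-side summer replicate 2, which is named the dim array from here on. Its 75th percentile was 2007, against 3516 to 4418 on the other 11 arrays, and the array's median correlation with the rest was 0.929, whereas any pair of the others reached at least 0.972. The 12 arrays lay on 2 slides, the first with all 6 summer arrays and both autumn replicates 1, the second with autumn replicates 2 and 3. Of the markers of the labelled tissue, 16 of 24 epithelial and 12 of 17 stromal genes had a probe, and all of these passed the filter on dim probes. In no comparison did any of the 12367 to 12389 probes tested pass the threshold of 0.05 on limma's adjusted p (0 called, 0.0% in each), so the values below are given with their unadjusted p and the share of all probes that reached the same.

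SERPINA14 signal was highest on the CL side in autumn, where 2 of 3 arrays carried far more of it than any other array of the study. On the CL side its processed signal was 1921, 1264 and 1827 in summer (log2 −1.20, −0.67 and −1.16), against 30013, 11106 and 2535 in autumn (log2 2.79, 1.48 and −0.64). In the opposite horn it was 685, 2091 and 1480 in summer (log2 −2.56, −0.79 and −1.25), against 762, 530 and 4073 in autumn (log2 −2.50, −2.80 and −0.10). The autumn arrays of CL-side replicates 1 and 2 were the highest of the 12, autumn replicate 3 lay near the summer arrays, and non-CL-side autumn replicate 3 was the third highest signal. Between the lowest and the highest array the scaled signal differed 48.3-fold.

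The 4 group means of SERPINA14 on the log2 scale were −1.01 ± 0.30 on the CL side in summer, 1.21 ± 1.73 on the CL side in autumn, −1.53 ± 0.92 on the non-CL side in summer and −1.80 ± 1.48 on the non-CL side in autumn (SD, n = 3 each). In order of level, CL-side autumn was followed by CL-side summer, non-CL-side summer and non-CL-side autumn, and the lower 3 groups lay within 1 SD of the widest of them. The SD of 1.73 in CL-side autumn compares with a median of 0.23 over all probes in the same group, and 0.493% of the probes had an SD at least as large. In CL-side summer the SD was below the median of all probes, 0.30 against 0.36. Over all 12 arrays its SD was 1.63, which 0.613% of the probes reached, against a median of 0.31.

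**Figure D1:**
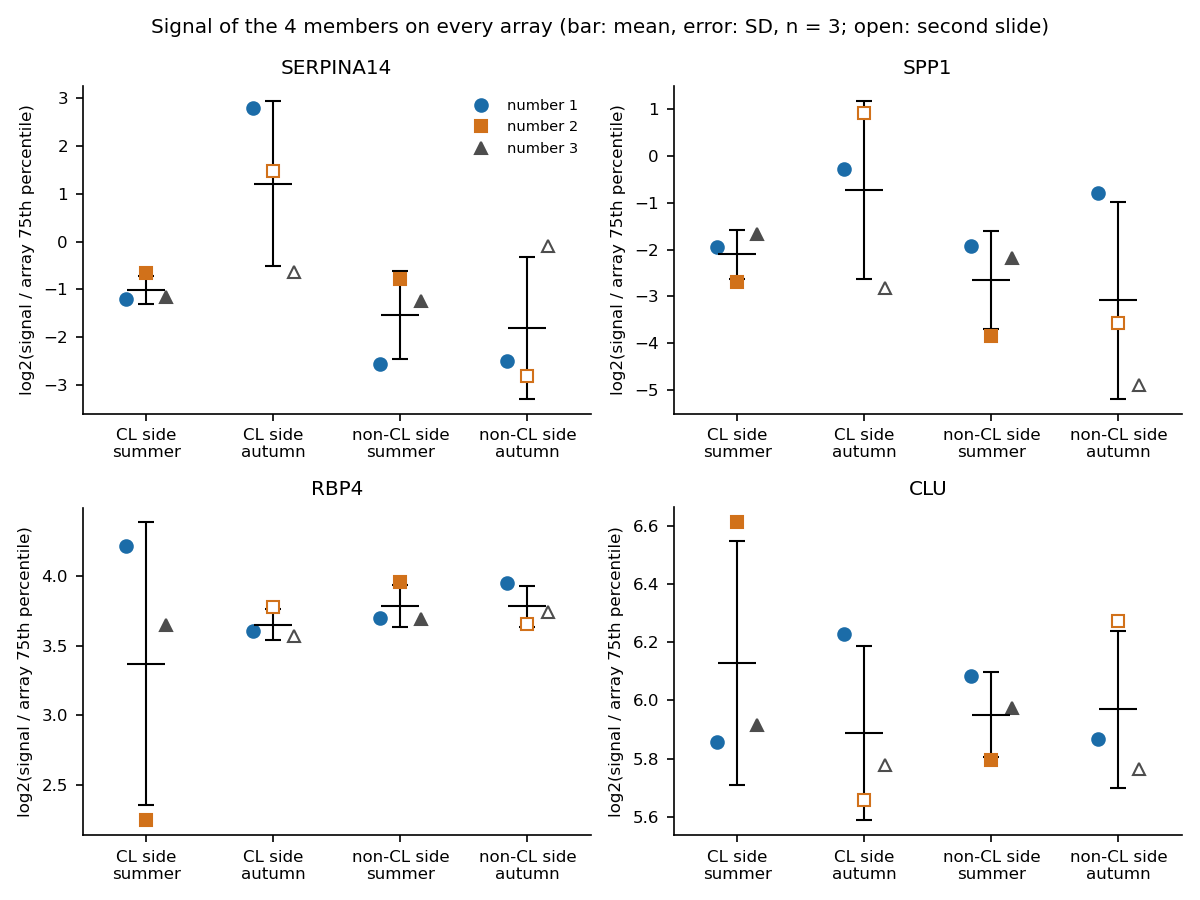
Log2 signal of SERPINA14, SPP1, RBP4 and CLU relative to the array's 75th percentile (y axis, a scale per gene) on each of 12 arrays in 4 groups (x axis), with marker shape and colour for the replicate number, open markers for the second slide, and a bar and whiskers for the group mean and SD (n = 3). SERPINA14 and SPP1 spread widely in autumn on either side, whereas RBP4 lay between 3.57 and 4.22 on every array except the dim one, at 2.25.

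The season comparison on the CL side asked whether summer endometrium next to the corpus luteum differed from autumn endometrium. SERPINA14 was lower in summer by a log2 change of −2.22 ± 0.89 (SE), a 4.66-fold difference with a 95% interval on the log2 scale from −4.19 to −0.25. The unadjusted limma p was 0.0309 and the adjusted p 0.496. An unadjusted p under 0.05 in the same direction was reached by 3.55% of all probes, and 9.92% reached it in either direction. The 3 summer arrays lay below the 3 autumn arrays, as they did for 5.02% of the probes (13.0% had no overlap in either direction), but the gap was 0.03, between the dim array and CL-side autumn replicate 3, and with normexp background correction the groups overlapped by 0.01. Within the first slide, which holds 1 CL-side autumn array, the change was −3.80 ± 0.66, and with slide as a term of the fit it was −2.66 ± 1.12. Without CL-side autumn replicate 1 it was −1.43, the weakest of the fits that left out 1 array.

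The same gene gave a log2 change of 0.27 ± 0.89 on the non-CL side, summer minus autumn, with a limma adjusted p of 1. The groups overlapped there, as they did for all 4 members (6.07% of all probes had none). Its direction there turned to −0.17 with slide as a term of the fit. When same-numbered horns were averaged first, the summer means were −1.88, −0.73 and −1.20 and the autumn means 0.15, −0.66 and −0.37. All 3 summer means were below the autumn means, by a gap of 0.07. The change over both sides was −0.98 ± 0.34, or 1.97-fold lower in summer, with an unadjusted limma p of 0.0259 and an adjusted p of 0.894. Of all probes, 1.3% reached an unadjusted p under 0.05 in that direction, and 5.14% had summer means below the autumn means without overlap. With slide as a term, or within the first slide alone, the change over both sides was −1.42. These settings are the same comparison here, with autumn pair 1 alone, since the second slide holds no summer array. The test of whether the season change differed between the sides gave −2.49 ± 1.26 (limma adjusted p = 0.999). Its unadjusted limma p of 0.0752 missed 0.05, a level that 1.88% of the probes reached.

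In autumn SERPINA14 was higher on the CL side by 3.01 ± 0.89 on the log2 scale, an 8.06-fold difference with a 95% interval from 1.04 to 4.98. The unadjusted limma p was 0.00657, and 8 of 12378 probes had a smaller one, yet after adjustment over all probes it was 1. An unadjusted p under 0.05 with a higher CL side was found for 0.8% of the probes. The groups overlapped, because CL-side replicate 3 (−0.64) was below non-CL-side replicate 3 (−0.10), whereas 7.9% of all probes had no overlap. Set number by number, the CL side exceeded the non-CL side 39.1-fold in replicate 1 and 19.5-fold in replicate 2, and in replicate 3 the log2 difference was −0.54. In summer the corresponding log2 differences were 1.36, 0.12 and 0.090, and the group difference of 0.52 ± 0.89 did not pass the test (limma adjusted p = 0.984). Leaving out 1 array at a time moved the autumn difference between 2.22 and 3.94. The first slide alone holds 1 pair of autumn horns and gave 5.29 ± 0.81.

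**Figure D2:**
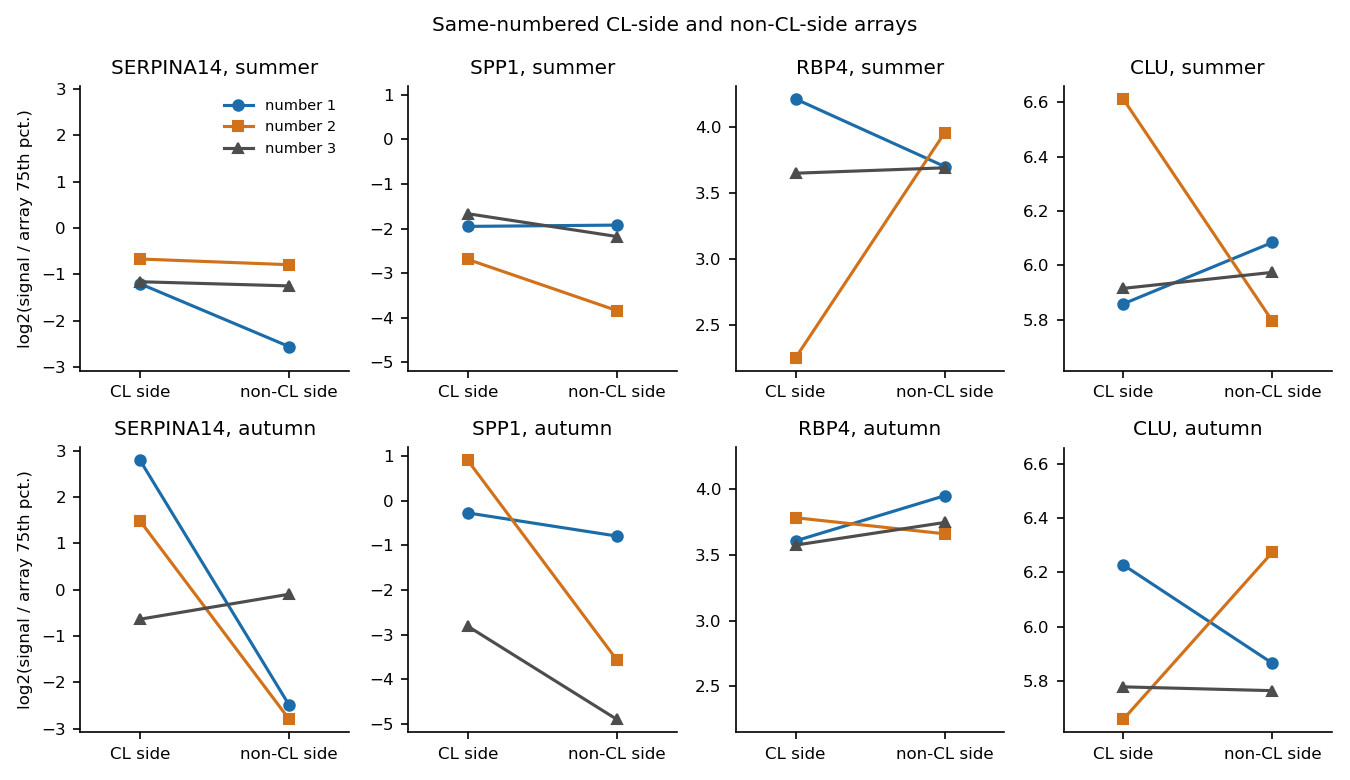
Log2 signal relative to the array's 75th percentile (y axis, 1 scale per gene) on the CL side (left) and the non-CL side (right) in summer (top row) and autumn (bottom row), with lines joining arrays of the same replicate number. For SERPINA14 the lines of autumn numbers 1 and 2 drop by 5.29 and 4.29 toward the non-CL side, whereas number 3 runs the other way by 0.54.

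Markers of several cell types differed between the groups too, and their part in the SERPINA14 result was not tested. In these bulk biopsies fewer cells of a type and less RNA per cell cannot be told apart. For a marker score, each gene's mean over the 12 arrays was subtracted from its log2 value, and the differences were averaged over the list. The stromal score was 0.68, 0.97 and 0.21 on the CL-side autumn arrays 1, 2 and 3, the first pair of them the highest of the study, against −1.07 to 0.21 on the CL-side summer arrays. The −1.07 belongs to the dim array, which was the highest of the CL-side summer arrays for SERPINA14. On non-CL-side autumn replicate 3, the array with the third highest SERPINA14, the stromal score was −0.15. All 12 stromal markers tested were lower in summer on the CL side, 8 of them with an unadjusted p under 0.05 (3.55% of all probes in that direction), and their median change was −1.08 against 0.02 over all probes. Among 16 epithelial markers, 14 had higher CL-side values in summer (median change 0.71), and their score ran from −0.19 to 1.15 there, against −0.32 to −0.18 in CL-side autumn. The ciliated-cell score was −1.27, −1.01 and 0.29 on the CL-side autumn arrays 1, 2 and 3, and 0.13 to 1.32 on the CL-side summer arrays. It was thus low on the arrays highest for SERPINA14, but 0.85 on non-CL-side autumn replicate 3, the third highest. It was also low, at −1.18 and −0.57, on non-CL-side autumn replicates 1 and 2, where SERPINA14 was not high. Markers of granulocytes and mast cells were higher in summer on the CL side in 4 of 4 genes (median 1.66), with scores of 0.84 to 1.30 there, against −0.85 to −0.12 in CL-side autumn. Squamous markers were higher in 5 of 5 (median 0.87), T and NK cell markers in 14 of 15 (0.57) and B and plasma cell markers in 4 of 4 (0.53). Smooth-muscle, endothelial, macrophage and red blood cell lists had medians between −0.36 and 0.26. Between the autumn horns, where SERPINA14 and SPP1 were higher on the CL side, all 12 stromal markers were higher on the CL side too. Their median was 0.54, against −0.04 over all probes. Of them, 4 had an unadjusted limma p under 0.05, against 0.8% of all probes with a higher CL side. The groups did not overlap for 6, against 7.9% of all probes in either direction. Smooth-muscle markers were higher on the CL side in autumn in 7 of 7 (median 0.69) and macrophage markers in 8 of 9 (0.37). Epithelial markers were lower there in 12 of 16 (−0.36).

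SPP1 was, like SERPINA14, more variable than most probes, and its highest arrays were also CL-side autumn replicates 1 and 2. On the CL side its processed signal was 1142, 311 and 1284 in summer (log2 −1.95, −2.69 and −1.67), against 3598, 7450 and 563 in autumn (log2 −0.27, 0.91 and −2.81). On the non-CL side it was 1067, 253 and 777 in summer (log2 −1.92, −3.84 and −2.18), against 2491, 312 and 146 in autumn (log2 −0.79, −3.57 and −4.90). The lowest array was non-CL-side autumn replicate 3, on which SERPINA14 was comparatively high, and both sides of autumn replicate 1 were among the 3 highest for SPP1. The range over the arrays was 55.9-fold.

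Group means of SPP1 were −2.10 ± 0.53 on the CL side in summer, −0.73 ± 1.90 on the CL side in autumn, −2.65 ± 1.04 on the non-CL side in summer and −3.09 ± 2.10 on the non-CL side in autumn (log2, SD, n = 3 each). Every group overlapped every other that it was compared with. The SD of 2.10 in non-CL-side autumn was reached by 0.178% of the probes, and that of 1.90 in CL-side autumn by 0.299%. In order, CL-side autumn stood above CL-side summer, non-CL-side summer and non-CL-side autumn, which is the order of the SERPINA14 means too, and no neighbours in it differed by more than the larger of their SDs.

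For SPP1 the season change on the CL side was −1.38 ± 1.10, summer minus autumn (limma adjusted p = 0.632), with a 95% interval from −3.81 to 1.06. On the non-CL side it was 0.44 ± 1.10 and over both sides −0.47 ± 0.87, and neither passed. The direction on the non-CL side turned to −0.94 with slide as a term and to −1.86 within the first slide, and over both sides it was −0.02 without summer replicate 2. On the CL side the change was −2.75 ± 1.19 with slide as a term and −1.83 within the first slide. In autumn the CL side was higher by 2.36 ± 1.10, with a 95% interval from −0.07 to 4.80 and an unadjusted limma p of 0.0561. With same-numbered horns paired in the fit it was 2.36 ± 0.68, with an unadjusted limma p of 0.0114 and an adjusted p of 0.99. More probes reached an unadjusted limma p under 0.05 with pairing, 526 against 230 without it, in either direction. For SERPINA14 the SE of the same difference was larger with pairing than without. Taken by number, the CL side was higher in 3 of 3 autumn pairs, by 0.52, 4.47 and 2.09, and the first slide, with autumn pair 1 alone, gave 0.52. In summer the pair differences were −0.03, 1.15 and 0.51, and the group difference was 0.54 ± 1.10.

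RBP4 had nearly the same signal on 11 arrays and a much lower one on the dim array. In CL-side summer its processed signal was 82123, 9543 and 51267 (log2 4.22, 2.25 and 3.65), against 52840, 54678 and 46985 in CL-side autumn (log2 3.61, 3.78 and 3.57). The non-CL side gave 52650, 56247 and 45487 in summer (log2 3.70, 3.96 and 3.69), against 66435, 46791 and 58474 in autumn (log2 3.95, 3.66 and 3.75). The value of 9543 belongs to the dim array, so it lay far below all other arrays after scaling too, and apart from it the groups overlapped throughout.

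Without the dim array the RBP4 values spanned 1.56-fold with an SD of 0.19, against a median SD of 0.25 over all probes on the same 11 arrays. With it the span was 3.91-fold. Group means were 3.37 ± 1.01 on the CL side in summer, 3.65 ± 0.11 on the CL side in autumn, 3.79 ± 0.15 on the non-CL side in summer and 3.78 ± 0.15 on the non-CL side in autumn (log2, SD, n = 3 each). The CL-side season change was −0.28 ± 0.39 with all arrays and 0.28 ± 0.19 without the dim array, and the limma adjusted p was 0.792 and 0.847. Likewise the summer side difference was −0.41 ± 0.39 with it and 0.15 ± 0.19 without it. With slide as a term the CL-side season change of RBP4 was −0.34 ± 0.50, and within the first slide −0.23. Over both sides the season change was −0.14 ± 0.23, and in autumn the CL side minus the non-CL side was −0.13 ± 0.39, with a 95% interval from −0.99 to 0.73.

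Single genes of retinol handling stood apart on the dim array as well, but the list of them as a whole did not. Its score, formed like the marker scores, was −0.12 there, within the range of −0.25 to 0.15 over the arrays. STRA6, the receptor that takes retinol from RBP4, had a processed signal of 984 there, against 37578 to 63950 on the other 11 arrays. Its spots carried an outlier flag of the scanner software on 9 of 12 arrays and were left out of the fits, so the named summer side difference of −4.55 compares 1 array with 1 array. TTR, the plasma partner of RBP4, was picked out after its values were seen. Its signal was 560 on the dim array, against 46 to 170 on the others. The dim array also held the highest epithelial score (1.15), the lowest stromal score (−1.07) and a smooth-muscle score of 1.65, and whether these move RBP4 was not tested.

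CLU had the smallest SD of the 4 over the 12 arrays, but without the dim array the SD of CLU was 0.20, against 0.19 for RBP4. In CL-side summer its processed signal was 256308, 196362 and 246005 (log2 5.86, 6.61 and 5.92), against 325335, 200945 and 216693 in CL-side autumn (log2 6.23, 5.66 and 5.78). The non-CL side had 274222, 200870 and 221024 in summer (log2 6.08, 5.80 and 5.97), against 251210, 286783 and 237097 in autumn (log2 5.87, 6.27 and 5.77). The dim array had the lowest intensity of the 12 and the highest scaled value, since its scaling percentile was lower still. The groups overlapped in each comparison.

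Group means of CLU were 6.13 ± 0.42 on the CL side in summer, 5.89 ± 0.30 on the CL side in autumn, 5.95 ± 0.15 on the non-CL side in summer and 5.97 ± 0.27 on the non-CL side in autumn (log2, SD, n = 3 each). Its SD over 12 arrays was 0.27, and 58.7% of the probes had one at least as large. The season change on the CL side was 0.24 ± 0.24, summer minus autumn (limma adjusted p = 0.702), and without the dim array it was −0.0018 ± 0.21. It was 0.12 ± 0.30 with slide as a term and −0.10 ± 0.35 within the first slide. On the non-CL side the change was −0.02 ± 0.24, with a 95% interval from −0.55 to 0.51. Side differences were 0.18 ± 0.24 in summer, −0.06 without the dim array, and −0.08 ± 0.24 in autumn. All group means lay within 0.24 of each other, less than the SD of CL-side summer.

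**Figure D3:**
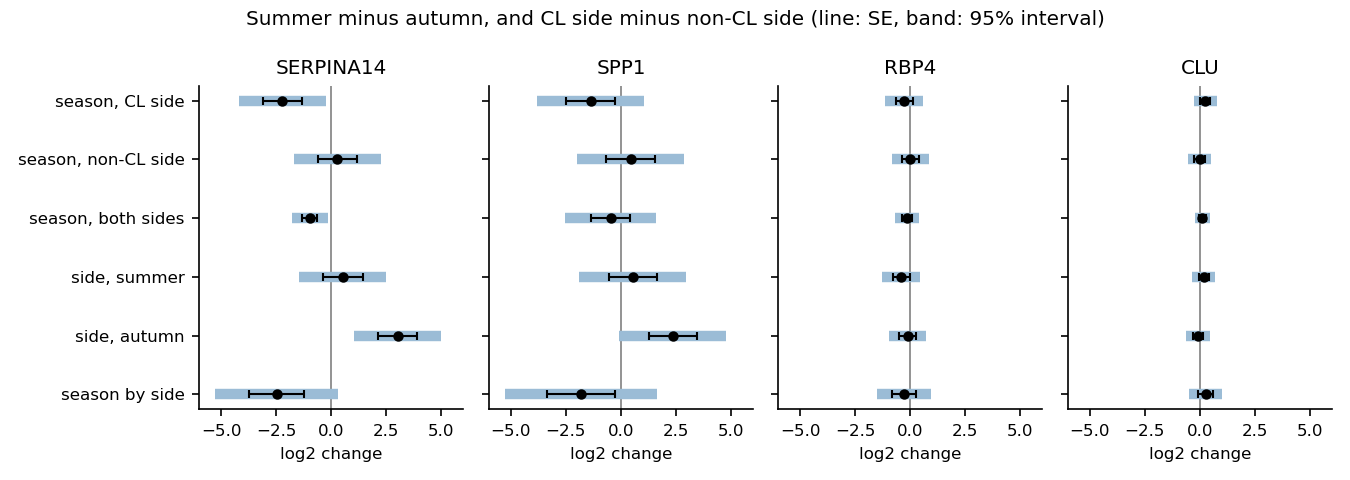
Log2 change (x axis) of each member in 6 comparisons (rows), summer minus autumn for the season, CL side minus non-CL side for the side, and the difference of the season changes in the last row. Points are the estimates, lines the SE and pale bands the 95% intervals. The band leaves out 0 for SERPINA14 in the CL-side season change, the season change over both sides and the autumn side difference, and none of these passes after adjustment.

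The members were also compared with each other over the arrays. Pearson's r over 12 arrays, given as a description because arrays share slides and possibly cows, was 0.40 between SERPINA14 and SPP1 and lay between 0.19 and 0.57 when any 1 array was left out. RBP4 and CLU had an r of −0.77, which was −0.36 without the dim array. The other pairs lay between −0.10 and 0.10 with all arrays, and between −0.41 (SERPINA14 and CLU) and 0.18 when any 1 array was left out. At the level of single arrays, CL-side autumn replicates 1 and 2 were the 2 highest for SERPINA14 and the highest and second highest for SPP1, whereas RBP4 at 3.61 and 3.78 was within the range of the other groups there. CLU was at 6.23 and 5.66 on them, and 5.66 was its lowest value of the 12.

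Among 4540 genes with signal well above background throughout, the 5 most like SERPINA14 were CDCA3 (r = 0.84), CTHRC1 (0.83), CENPF (0.83), CDCA2 (0.80) and NUSAP1 (0.80). CENPF is a centromere protein, NUSAP1 binds the mitotic spindle, and CTHRC1 is a secreted collagen triple helix repeat protein. CDCA3 had log2 values of −4.30, −3.93 and −4.21 in CL-side summer, against −1.96, −0.64 and −4.38 in CL-side autumn, and −5.00 to −4.10 on the non-CL side. It was thus high on the same 2 arrays as SERPINA14, a likeness for which it was picked. Without CL-side autumn replicate 1 the r of CTHRC1 was 0.71, and without the dim array the 5 values stayed between 0.80 and 0.84. The lowest r belonged to PYGB (−0.89), SLC3A1 (−0.86) and WBP1 (−0.79).

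**Figure D4:**
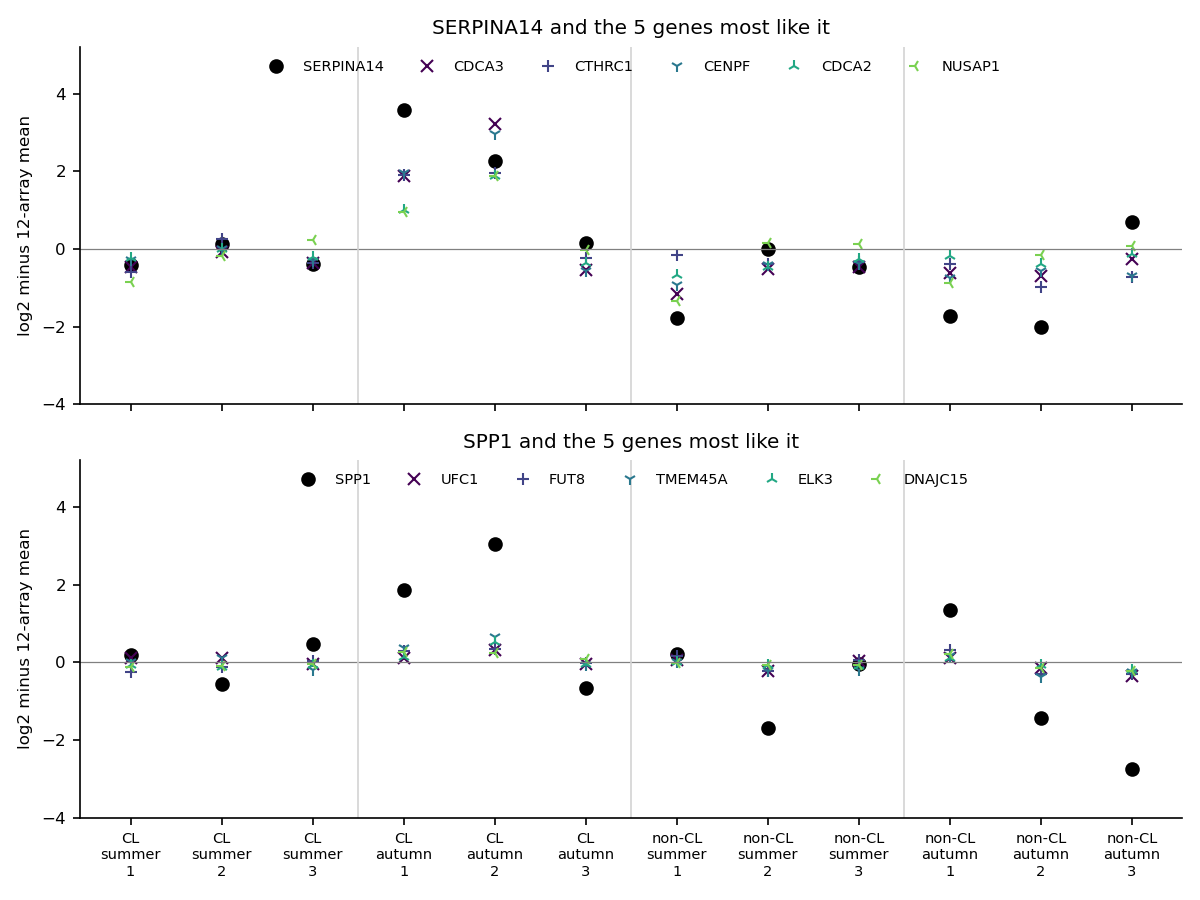
Log2 value minus the gene's mean over 12 arrays (y axis) for SERPINA14 (top) and SPP1 (bottom) with the 5 genes of highest Pearson's r to each, on every array (x axis, side, season and replicate number). The genes were picked by r on these same arrays. Those most like SERPINA14 lie above their means on CL-side autumn arrays 1 and 2, and those most like SPP1 vary far less than SPP1 itself.

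The genes most like SPP1 were UFC1 (r = 0.90), FUT8 (0.89), TMEM45A (0.86), ELK3 (0.85) and DNAJC15 (0.85), and the least like it IL17RC (−0.86), DHODH (−0.84) and PIK3CB (−0.83). FUT8 adds fucose to glycoproteins and ELK3 is a transcription factor. In the authors' deposited values the r of FUT8 was 0.66. For RBP4 the highest were FST (0.95), CTSV, MOSPD1, ACYP1 and RNFT1, but without the dim array their r was 0.53 to 0.77. With all arrays, the r of ACYP1 was 0.48 in the authors' deposited values. FST, follistatin, a binder of activin, had a log2 value of −1.65 on the dim array. The genes most like CLU, NAPEPLD (0.93), CELA1, HOXA2, XBP1 and RASSF4, kept an r of 0.79 to 0.88 without that array. FGF10 had the lowest r to CLU (−0.93), and in the authors' values 0.22.

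The wider set of uterine secretory products, chosen as genes known from histotroph or endometrial secretions, held 53 genes, of which 41 had a probe and 33 were tested. Over both sides 22 were higher and 11 lower in summer, with a median change of 0.05 against 0.01 over all probes, and 0 passed limma's adjusted threshold, while 3 were higher and 1 lower with an unadjusted p under 0.05 (2.68% and 1.3% of all probes, 3.98% in all). NTS, neurotensin, had log2 values of −0.95, 4.73 and −0.20 in CL-side summer, against −4.82, −4.08 and −4.71 in CL-side autumn. On the non-CL side it had −5.09, −1.24 and −2.54 in summer, against −5.18, −4.31 and −4.59 in autumn. Its change over both sides was 3.73 ± 1.12 (limma adjusted p = 0.894), with its highest value on the dim array. The summer and autumn horn means did not overlap, as for 10.6% of all probes. Without summer replicate 2 the change was 2.42. IGFBP1, a binding protein of insulin-like growth factors, gave 1.35 ± 0.45 and CST6, a secreted protease inhibitor of the cystatin family, 0.72 ± 0.26. LGALS1, galectin-1, gave −0.72 ± 0.25, IGF2 −0.82 ± 0.36 and the mucin MUC1 0.56 ± 0.31. TIMP2, an inhibitor of matrix proteases, gave 0.30 ± 0.19, and IGF1 gave −0.50 ± 0.35. IGF1 was well above background on 11 of 12 arrays, and lay at the floor set for low signals, −7.28, on the dim array. Without summer replicate 2 the IGF1 change was −0.20.

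Between the horns, 14 of the 33 secretory genes were higher and 19 lower on the CL side in summer, and 22 higher and 11 lower in autumn, with medians of −0.09 and 0.11. Each median turned sign without 1 array, to 0.02 in summer without non-CL-side replicate 3 and to −0.09 in autumn without CL-side replicate 2. None passed limma's adjusted threshold (2 had an unadjusted p under 0.05 in either season, all higher on the CL side, against 0.977% and 0.8% of all probes, or 1.41% and 1.86% with either direction). In summer these were NTS, at 4.15 ± 1.33, and LTF, the iron-binding protein lactoferrin, at 4.11 ± 1.45. LTF had log2 values of 3.34, 7.73 and 3.23 on the CL side, against −2.39, 2.73 and 1.63 on the non-CL side, with the highest again on the dim array. Without the dim array NTS was at 2.38 and LTF at 2.63, and without non-CL-side summer replicate 1 LTF was at 2.59. In the same comparison 3 of 4 granulocyte and mast cell markers had higher CL-side values (median 1.48) as had 13 of 15 T and NK cell markers (0.60), and their part in these values was not tested. The autumn genes were LGALS1, at 0.74 ± 0.29, and TIMP1, another inhibitor of matrix proteases, at 0.56 ± 0.23.

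The serpin family is the one SERPINA14 belongs to, and 9 or 10 of the 36 listed relatives could be tested in a comparison. In autumn all 9 were higher on the CL side, the direction of SERPINA14, with a median of 0.24 against −0.04 over all probes, but 0 of them reached an unadjusted p under 0.05. The count was 9 of 9 under each scaling and 10 of 10 in the authors' deposited values, but without CL-side autumn replicate 2 it was 5 of 9 with a median of 0.01, and within the first slide 6 of 9. SERPING1, the inhibitor of complement C1, was at 0.27 ± 0.18, which turned to −0.05 within the first slide. On the CL side 2 were higher and 7 lower in summer, with a median of −0.40, and without CL-side autumn replicate 2 there were 4 higher and 5 lower. Over both sides 4 were higher and 5 lower, 0 passed limma's adjusted threshold and 1, lower in summer, had an unadjusted p under 0.05 (1.3% of all probes in that direction).

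Of single serpins over both sides, SERPINF2, the inhibitor of plasmin, was at −0.55 ± 0.22, SERPING1 at −0.33 ± 0.15 and SERPINB1, an inhibitor of neutrophil elastase, at 0.47 ± 0.21, summer minus autumn. Horn means of these 3 did not overlap between seasons, as for 10.6% of all probes. The SERPINF2 probe was dim, and well above background on 11 of 12 arrays. Its log2 value was at the floor of −7.28 on non-CL-side summer replicate 1, and −6.58 to −4.59 on the other arrays. SERPINF1 was at −0.39 ± 0.25 and SERPINE2, an inhibitor of thrombin and plasminogen activators, at −0.22 ± 0.25. SERPINA3 (0.28 ± 0.61) and SERPINB8 (0.08 ± 0.25) had changes smaller than their SE. SERPINB1 was also named between the horns in summer, at 0.45 ± 0.29, and was at 0.11 without the dim array. SERPINH1, the collagen chaperone, was left with 2 CL-side arrays and 1 non-CL-side array in summer after outlier flags, at log2 values of 2.55 and 2.03 against 3.06.

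Receptors and processing enzymes of osteopontin were measured for 11 of 19 listed genes. Over both sides 8 were higher and 3 lower in summer, with a median of 0.24, and 0 reached an unadjusted p under 0.05. In the authors' deposited values 5 were higher and 6 lower, with a median of −0.02, and without summer replicate 2 the median was also −0.02. ITGB5, an integrin subunit, was at 0.51 ± 0.27, MMP7, a protease that cleaves osteopontin, at 0.36 ± 0.24, and TGM2, which crosslinks it, at −0.25 ± 0.19. ITGB6, well above background on 10 of 12 arrays, was at 0.42 ± 0.30 and turned to −0.10 in the authors' deposited values. Between the horns in summer, the receptor CD44 was at 0.98 ± 0.44 and the integrin subunit ITGB1 at −0.47 ± 0.18, both without overlap of the groups (3.52% of all probes). Without the dim array CD44 was at 0.45 and ITGB1 at −0.35. In autumn MMP7 was at 1.18 ± 0.59 and ITGB6 at −0.92 ± 0.59, CL side minus non-CL side, and ITGB6 was at 0.23 in the authors' deposited values. The adjusted limma p of each was at least 0.894.

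Retinol transport and retinoic acid metabolism were represented by 17 or 18 of 29 genes. Over both sides 7 were higher and 10 lower in summer, with a median of −0.18 that was 0.0043 without summer replicate 2 and 0.02 without autumn replicate 3. Of these genes 1 had an unadjusted p under 0.05, higher in summer (2.68% of all probes in that direction). This was DHRS9, a retinol dehydrogenase, at 0.74 ± 0.14. Its horn means did not overlap, as for 10.6% of all probes. Its processed signals were among the dim ones, 27 to 80, and the change was −0.0073 in the authors' deposited values. CYP26A1, which degrades retinoic acid, was at 1.32 ± 0.55 and DHRS3, a retinal reductase, at 0.75 ± 0.34. Between the horns, DHRS9 was at 0.41 ± 0.22 in summer, and RARRES1 at 0.58 ± 0.30 and CRABP2, a carrier of retinoic acid, at 0.42 ± 0.27 in autumn. CRABP2 turned to −0.04 within the first slide.

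Clusterin's receptors and partners were measured for 9 of 16 genes, of which 6 were higher and 3 lower in summer over both sides, with a median of 0.19 that was −0.05 without autumn replicate 1. None passed limma's adjusted threshold, and 1 had an unadjusted p under 0.05, higher in summer (2.68% of all probes in that direction). C8B, a chain of the complement complex that clusterin binds, was at 0.85 ± 0.34. Its horn means did not overlap, as for 10.6% of all probes. The lipoprotein receptor VLDLR was at 0.56 ± 0.24, the complement chain C8A at 0.78 ± 0.81 and the receptor LRP1 at −0.13 ± 0.17. Between the horns C8B was at 1.01 ± 0.42 in summer and −0.99 ± 0.42 in autumn, where 3 arrays lay at or close to the floor of −7.28 and the authors' deposited values gave 0.31. Among the apolipoproteins, APOA1 was at −0.77 ± 0.39 in summer and APOE at 0.55 ± 0.34 in autumn. Without the dim array the summer side difference was −0.24 for APOA1 and 0.547 for C8B.

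Steroid receptors and regulators of the uterine glands, tested for 11 of 16 genes, were higher in 4 and lower in 7 over both sides, with a median of −0.10 and 0 with an unadjusted p under 0.05. PGR, the progesterone receptor, was at −0.19 ± 0.16. Its log2 signals were −0.96, −1.71 and −1.21 in CL-side summer, against −1.10, −1.10 and −1.01 in CL-side autumn, with the lowest value on the dim array. PGRMC2, a progesterone receptor membrane component, was at −0.22 ± 0.12 and the transcription factor NR2F2 at −0.34 ± 0.20. IHH, a signal from epithelium to stroma, was at −1.22 ± 0.81, and its log2 value was −4.11 on the dim array, against 0.32 to 2.02 elsewhere. Without summer replicate 2 its change was −0.21. Between the horns in summer, OXTR, the oxytocin receptor, was at 2.22 ± 1.11, and at 1.36 without the dim array. PRLR, the prolactin receptor, had processed signals of 156, 107 and 32 on the CL side, against 34, 8 and 19 on the non-CL side, where it was well above background on 1 of 3 arrays, so no fold is given. In autumn NR2F2 was at 0.41 ± 0.24. MSX1, a transcription factor, was left after outlier flags with 1 CL-side array in autumn, at a log2 value of 2.62, against 3.70 and 3.28 on 2 non-CL-side arrays.

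**Figure D5:**
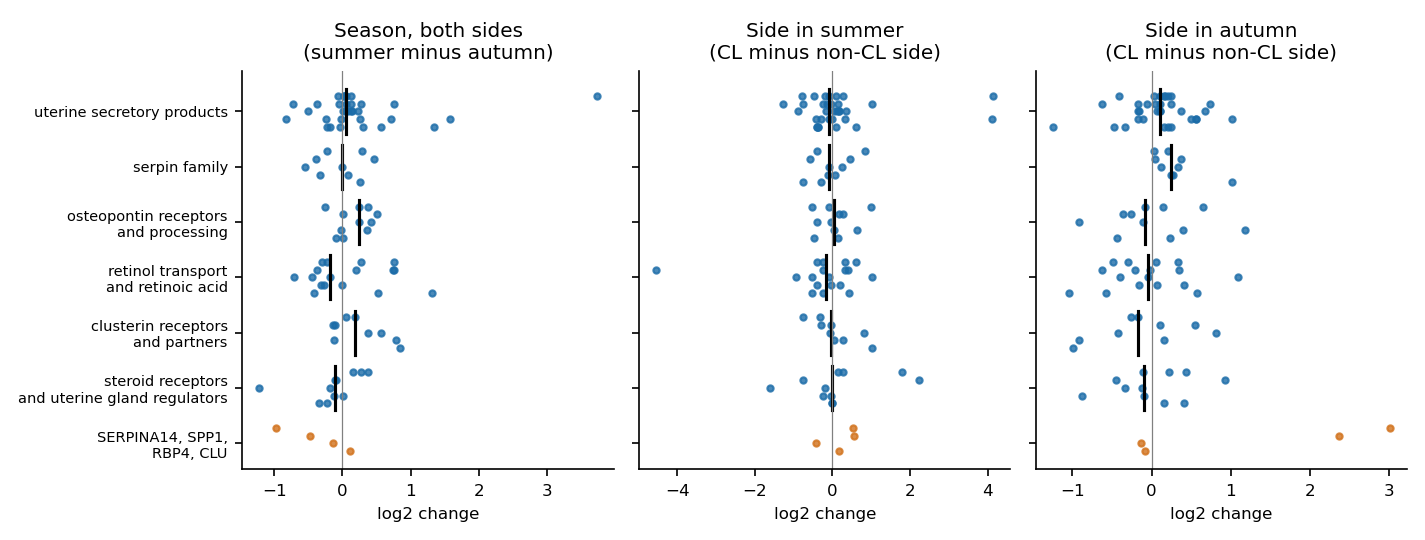
Log2 change (x axis) of every tested gene (points) in 6 gene lists (rows), with a bar at the list median, for the season change over both sides (left), the side difference in summer (middle) and the side difference in autumn (right). The last row gives SERPINA14, SPP1, RBP4 and CLU. In autumn SERPINA14 at 3.01 and SPP1 at 2.36 lie to the right of every listed gene.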

How the data were processed

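Gene expression was measured in 12 endometrium biopsies on 1-colour Agilent bovine arrays. Total RNA (400 ng a sample) was amplified and labelled with Cy3, per the labels' protocols. The deposited scanner files give a processed spot intensity that, per the file headers, Feature Extraction 9.5.1.1 had background-subtracted (the submitters' processing notes name version 9.5). A second deposited table, also of the authors, holds log2 values whose scale, centring and treatment of low signals are unstated; its columns correlated with the scanner values at 0.971 to 0.995, ran in the same direction and had medians from −2.79 to −2.61. For the genome build, not given in the sources used, no coordinates are printed. Symbols came from the files or, by accession, from RefSeq's gene table (ARS-UCD2.0), which served for naming alone: 6169 probes had a symbol, 991 only a locus name and 8048 none.

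Sample titles gave the groups and replicate numbers. Each array was divided by its 75th percentile over non-control probes, and a floor of −7.28 on the log2 scale, which held 2.06% of the kept values, was set, since a signal of 0 or less has no logarithm. Control spots and 466 values with an outlier flag were left out. A probe was kept if some group had it well above background on each of its arrays (12404 of 15208 were), and the brightest probe stood for a gene. Tests were two-sided and used lmFit and eBayes of limma 3.58.1 (R 4.3.3) in 1 fit of 4 group means, and after averaging same-numbered horns for the season change over both sides, with Benjamini-Hochberg adjustment over all kept probes and a threshold of 0.05. Errors are SE unless named as SD. The number of arrays limits the precision. The code was tested on simulated data.

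The members, gene lists and tests were chosen with earlier results of these data known. Named were the members, up to 8 (secretory products, serpins) or 4 genes per list with the smallest p for the season change over both sides, up to 2 per list for each side difference, and the 5 most and 3 least like each member by Pearson's r; 2 genes that this rule names are not reported here. Same-numbered arrays deviated together from their group means: the correlation of these deviations was 0.27 to 0.50 between horns in summer, 0.14 to 0.38 between horns in autumn, 0.11 to 0.24 between seasons on the CL side and 0.16 to 0.35 on the non-CL side. Alternatives were normexp with an offset of 50, quantile and median scaling, the authors' values, other filters on dim probes, slide as a block, the first slide alone, a replicate block, and leaving out each array.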

Additional observations from a re-analysis of the deposited data

How the results depend on the processing

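No adjusted p of a member passed 0.05 in limma under any alternative run, and the lowest was 0.325. Of 480 values of members under alternatives, 33 changed sign. Another scaling or background correction moved the median change of all probes by at most 0.038 on the log2 scale, and the authors' values moved it by up to 0.103 (side in autumn).

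Besides leaving out arrays, SERPINA14 turned to −0.172 (season, non-CL side) with slide as a block. SPP1 turned for the season on the non-CL side, to −0.935 with slide as a block and −1.86 within the first slide, and for the season by side, to 0.0242 within the first slide. RBP4 turned for the season on the non-CL side, to −0.0302 with median scaling, −0.0567 with slide as a block and −0.163 within the first slide. CLU turned to −0.0992 and 0.0846 for the season within the first slide, on the CL and non-CL side in that order. For CLU the season over both sides was −0.00731 with slide as a block and within the first slide, each on autumn pair 1 alone. Its side difference was −0.0767 in summer with quantile scaling and 0.361 in autumn within the first slide, where its season by side was −0.184. The cause was not tested.

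Leaving out 1 array (or 1 pair of horns for both sides), SERPINA14 ranged from −3.14 to −1.43 (season, CL side), −0.234 to 1.12 (season, non-CL side), −1.25 to −0.671 (both sides), 0.0103 to 0.895 (side, summer), 2.22 to 3.94 (side, autumn) and −3.41 to −1.70 (season by side). In the same order SPP1 ranged from −2.42 to −0.562, −0.467 to 1.59, −1.44 to 0.219, −0.0532 to 0.905, 1.45 to 3.51 and −2.97 to −0.911. RBP4 ranged from −0.702 to 0.281, −0.0857 to 0.0832, −0.33 to 0.0977, −0.834 to 0.149, −0.194 to −0.0487 and −0.704 to 0.28. CLU ranged from −0.00176 to 0.41, −0.119 to 0.135, 0.0293 to 0.171, −0.0644 to 0.313, −0.25 to 0.0728 and 0.0157 to 0.427. Counts of called probes ranged from 0 to 7 for the season on the CL side (7 without CL-side autumn replicate 3, 4 and 2 without CL-side summer replicates 3 and 1), 0 to 2 over both sides (2 without summer replicate 1), 0 to 1 for the side in summer, 0 to 6 for the side in autumn (6 without CL-side autumn replicate 3) and 0 to 1 for season by side, and the first slide alone called 1 for the season on the non-CL side. No member was among them.

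With a replicate block, which paired same-numbered horns for the side and same-numbered arrays across seasons, 0 probes were called in all 6 comparisons and no call changed. SERPINA14 in autumn was 3.01 ± 1.03 with the block and SPP1 2.36 ± 0.68 (limma adjusted p 0.99 for both), CL side minus non-CL side.

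Among other named genes, SERPINB8 over both sides turned to −0.0217 in the authors' values and −0.308 with slide as a block and within the first slide. ITGB6 turned to −0.103 over both sides and 0.225 for the side in autumn, DHRS9 to −0.00729 over both sides and C8B to 0.308 for the side in autumn, all in the authors' values. SERPING1 turned to −0.0547 and CRABP2 to −0.038 for the side in autumn within the first slide. Leaving out 1 pair of horns gave, over both sides, −0.402 to 0.0137 for SERPINE2, −0.0949 to 0.936 for SERPINA3, −0.158 to 0.276 for SERPINB8, −0.0542 to 1.47 for C8A and −0.21 to 0.0159 for LRP1. Other probes of a member could not be tried, since each has 1.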
